A study of Mus musculus with 12 samples.

Results

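Mitochondrial ribosomal protein genes are the nuclear genes that encode the protein subunits of the mitochondrial ribosome. They were taken by name, as the genes whose symbol starts with Mrpl (large subunit) or Mrps (small subunit) followed by a digit, with probe sets of pseudogenes left out. This gave 76 of the 24704 genes with a symbol on the arrays, each represented by 1 probe set. Tested were genes brighter than the array median on 3 or more of the 12 arrays, which held for 74 of the 76 and for 13737 genes in all. The remaining members, Mrps14 and Mrps36, lay near the bottom of the signal range. Mrps14 read between 2.85 and 3.79 and Mrps36 between 2.32 and 3.59 on the log2 scale, where array medians were 3.31 to 3.32. The 2 pseudogene probe sets left out were Mrpl27-ps and Mrps36-ps1.

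Ventricular myocytes, the contractile cells of the lower heart chambers, were isolated by enzyme perfusion from adult mice of 2 genotypes. The double knockout (DKO) was deficient for CaMKIIδ and CaMKIIγ, forms of a kinase that responds to calcium and calmodulin, and the corresponding wild type (WT) served as control. Myocytes of each of 6 mice, 3 per genotype, were left untreated or given 100 nM isoprenaline (Iso), a beta-adrenergic agonist, for 24 h, and each culture gave 1 Affymetrix array of total RNA. The series asked whether a histone phosphorylation seen after Iso goes with altered gene expression in the presence and absence of CaMKII. The 4 groups were thus untreated WT, Iso-treated WT, untreated DKO and Iso-treated DKO adult myocytes, with 3 arrays each. Arrays 1, 2 and 3 of the treated and untreated group of a genotype came from the same 3 animals, and mice are numbered here within their genotype in the same way. How the genes were deleted, and in which cells, was not analysed here.

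The mitochondrial ribosome translates the few messenger RNAs made from the mitochondrial genome, all of which encode subunits of the oxidative phosphorylation complexes. Its RNAs come from that genome, whereas its proteins are made in the cytosol from nuclear genes and imported. Part of these proteins have homologues in bacterial ribosomes and part are found in mitochondrial ribosomes alone. The heart depends on oxidative phosphorylation, and inherited defects of several members of the family, such as MRPL3 and MRPL44, cause cardiomyopathy in humans.

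All values below are log2 signals as deposited, so a difference of 1 is a doubling. Levels are set against each other only within a gene, since probe sets differ in brightness. In RNA from bulk cultures, fewer cells of a type and less RNA per cell cannot be told apart. The 10 cardiac myocyte markers, 10 of 10 tested, averaged 12.05 to 12.17 on untreated and 12.24 to 12.36 on Iso-treated WT arrays. In DKO they averaged 12.01 to 12.20 without and 12.27 to 12.46 with Iso. They thus lay higher with Iso without overlap, with 9 of 10 above 0 in each genotype (medians 0.07 and 0.18), in the comparisons in which most members lay lower, and their part in the members' values was not tested. Fibroblast markers averaged 4.82 to 5.14 and macrophage markers 5.02 to 5.90. Camk2g lay lower on each of the 6 DKO arrays than on any of the 6 WT arrays (highest DKO signal 4.20, lowest WT signal 4.78, limma adjusted p 0.0361 without and 0.00238 with Iso). Camk2d differed by -0.29 without and -0.35 with Iso, and neither difference passed the test. A probe set outside the deleted part would not show the deletion. Transcripts of the mitochondrial genome itself were not analysed here.

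Array 3 of the untreated DKO group was unlike the other 11, also for the members. Its median correlation with the other arrays across genes was 0.956, against 0.984 to 0.988 for each of the others. On this array 35 of the 74 members were higher than on any other array (47.3%, against 24.5% of all genes tested), and 19 were lower than on any other (25.7%, against 24.8%). The deviations of the members from their own means had an SD of 0.58 there, against 0.12 to 0.20 on the other arrays. Over all genes tested this SD was 0.52 there, against 0.19 to 0.26 on the other arrays. Mrpl20, a large-subunit protein with a bacterial homologue, read 6.59 on it, where the other DKO and WT arrays read 4.52 to 5.43. Mrpl13, another such protein, lay the other way, at 9.95 against 10.96 to 11.29. Most medians and counts, and the main single-gene results, that use the untreated DKO group are therefore also given without this array, an alternative chosen after seeing the data.

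**Figure D1:**
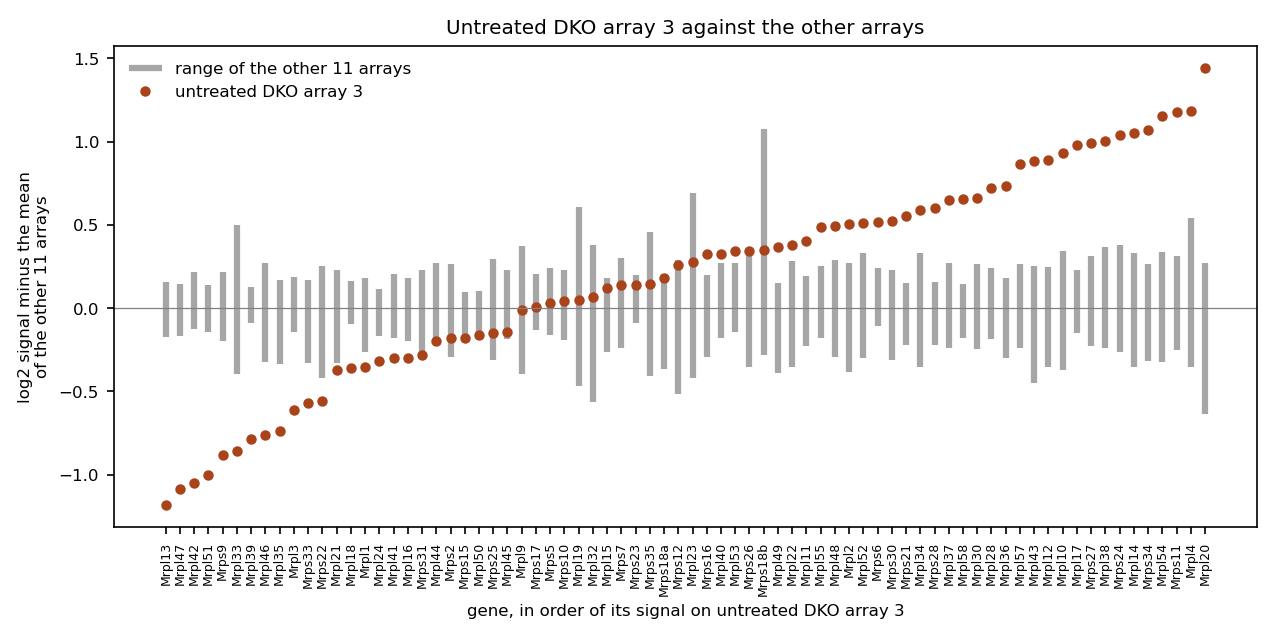
Signal of the 74 tested genes on untreated DKO array 3 (points) minus the mean of the other 11 arrays, with the range of those 11 arrays as grey bars. On this array 35 genes lie above and 19 below the range of the others, from Mrpl13 at the left to Mrpl20 at the right.

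After Iso, most mitochondrial ribosomal protein genes lay slightly lower in WT myocytes, but no single gene passed the test. The fitted difference was below 0 for 61 of the 74 members, with 52.2% of all genes tested below 0. Their median difference was -0.10, against -0.01 over all genes. By limma, 0 members had a Benjamini-Hochberg adjusted p under 0.05 (0.0218% of all genes did), and the smallest adjusted p among them was 0.46. At an unadjusted p under 0.05 there were 4 lower members (background 3.24%) and 0 higher ones (background 3.46%). Leaving out Iso-treated WT array 3 gave 7 lower members (3.19% of all genes), and leaving out Iso-treated WT array 2 gave 1 (2.64%), with medians of -0.17 and -0.04. It was 2 without array 1 of either WT group (2.33% without the untreated and 2.69% without the Iso-treated one). Leaving out untreated DKO array 3, which enters mainly through the shared spread, gave 8 lower members (5.83% of all genes). For 15 members every Iso-treated WT array lay below every untreated WT array (background 8.42%), and for 0 members every Iso-treated array lay above (background 7.16%). A difference that did not pass at this number of arrays is not shown to be absent.

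Mrpl9, a large-subunit protein with a bacterial homologue, had the smallest p of the family in WT. Its signal in WT was 6.69, 6.73 and 6.81 without Iso and 6.28, 6.41 and 6.21 with Iso. The groups did not overlap, and the difference of -0.44 (SE 0.12, 95% interval -0.71 to -0.17, a 1.36-fold lower signal) had an adjusted p of 0.46 by limma. Mrpl32, a large-subunit protein that the inner-membrane m-AAA protease trims before assembly, read 6.39, 6.32 and 6.16 without Iso and 6.11, 5.60 and 5.86 with it. All 3 treated arrays again lay below the untreated ones, by -0.43 on average (SE 0.15, adjusted p 0.60). Mrpl34, another large-subunit protein with a bacterial homologue, read 9.86, 9.92 and 9.70 without and 9.38, 9.38 and 9.62 with Iso, also without overlap (difference -0.36, SE 0.13, adjusted p 0.62). Mrps12, a protein of the decoding site of the small subunit, completed the lower members at an unadjusted p under 0.05. It read 10.55, 10.44 and 10.74 without and 9.94, 10.12 and 10.60 with Iso, and here the third treated array lay within the untreated range.

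The members with the smallest p on the higher side in WT were Mrpl23, Mrps28 and Mrps10. Mrps28 of the small subunit read 9.43, 9.45 and 9.61 without and 9.79, 9.56 and 9.76 with Iso, a difference of 0.21 (SE 0.14) with overlapping groups. Mrps10, of the small subunit, differed by 0.15 (SE 0.11), also with overlap. Mrpl23, a protein near the exit of the large subunit's peptide tunnel, differed by 0.37 (SE 0.22). It read 2.82 to 3.61 on the WT arrays, close to the array median, where a difference is poorly measured.

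In DKO myocytes the members again lay lower after Iso, over a wider range of differences. The fitted difference was below 0 for 51 of the 74 members (49.1% of all genes) with a median of -0.23, against 0.01 over all genes. By limma 0 members passed at an adjusted p under 0.05 (background 0.0510%). At an unadjusted p under 0.05 there were 21 lower members (background 8.94%) and 4 higher ones (background 9.46%). Without untreated DKO array 3 the difference was below 0 for 60 members, the median was -0.14, and 13 lower and 0 higher members had an unadjusted p under 0.05, with 7.35% and 7.69% of all genes. In that fit too, 0 members passed. Without untreated DKO array 2, 4 members passed (Mrpl4, Mrpl12, Mrpl54 and Mrps24), which is 5.41% beside 4.45% of all genes, so near the background. The lower count fell to 11 without Iso-treated DKO array 2 (5.92% of all genes) and to 12 with only the DKO arrays fitted (6.61%), with 0 higher members in both. The Iso-treated DKO arrays lay below all untreated ones for 31 members (background 10.7%) and above all for 3 (background 10.8%). With array 3 left out these counts were 36 and 3, with 15.8% and 17.1% of all genes. Macrophage markers lay lower after Iso in DKO as well (median -0.65, 9 of 9 below 0), and their part in the members' values was not tested.

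Mrpl4, which lines the peptide tunnel of the large subunit, had the smallest p of any member in DKO. Its signal was 8.47, 8.30 and 9.11 on the untreated and 7.82, 7.67 and 7.96 on the Iso-treated DKO arrays. The groups did not overlap, and the third untreated array was the highest of all 12. The difference was -0.81 (SE 0.19, 95% interval -1.23 to -0.39, a 1.75-fold lower signal, limma adjusted p 0.0845), and without array 3 it was -0.57 (SE 0.15, adjusted p 0.118). Mrpl12 belongs to the flexible stalk of the large subunit and has also been described as a partner of the mitochondrial RNA polymerase. It read 9.42, 9.49 and 10.13 without and 9.06, 8.88 and 9.15 with Iso, again without overlap. The difference was -0.65 (SE 0.17, adjusted p 0.0969), and -0.42 (adjusted p 0.143) without array 3.

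Mrpl38, a large-subunit protein without a bacterial homologue, read 8.69, 8.79 and 9.43 without and 8.19, 8.24 and 8.46 with Iso. Its groups did not overlap, with a difference of -0.68 (SE 0.18, adjusted p 0.103), and of -0.45 (adjusted p 0.17) without array 3. Mrpl2, a protein at the peptidyl transferase centre, came next by p and was named after its values were seen. It read 10.52, 10.41 and 10.76 without and 10.15, 9.87 and 10.16 with Iso, and the groups were apart by -0.50 (SE 0.14, adjusted p 0.107) with array 3 and -0.41 (adjusted p 0.198) without it. Among the small-subunit members the smallest p belonged to Mrps24, also picked after its values were seen, at 10.26, 9.89 and 10.93 without and 9.69, 9.71 and 9.74 with Iso. Its difference of -0.65 (SE 0.21, adjusted p 0.144) became -0.37 without array 3. Mrps18b was singled out for 1 deviating value, since untreated DKO array 2 read 6.91 and the other 11 arrays 5.55 to 6.18.

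On the higher side in DKO, Mrps9 of the small subunit and Mrpl18 and Mrpl47 of the large subunit had the smallest p. Mrps9 read 8.24, 8.20 and 7.35 without and 8.37, 8.46 and 8.41 with Iso. Mrpl47 read 8.82, 8.71 and 7.78 without and 8.90, 8.93 and 8.95 with Iso. For both the groups did not overlap, and the low value of untreated array 3 set most of the difference. The difference was 0.48 for Mrps9 and 0.49 for Mrpl47 with array 3, and 0.19 and 0.16 without it. Mrpl18, which takes part in the import of the 5S ribosomal RNA in human cells, read 10.01, 10.05 and 9.75 without and 10.25, 10.27 and 10.11 with Iso, a difference of 0.27 (SE 0.12, adjusted p 0.246) and of 0.18 without array 3.

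**Figure D2:**
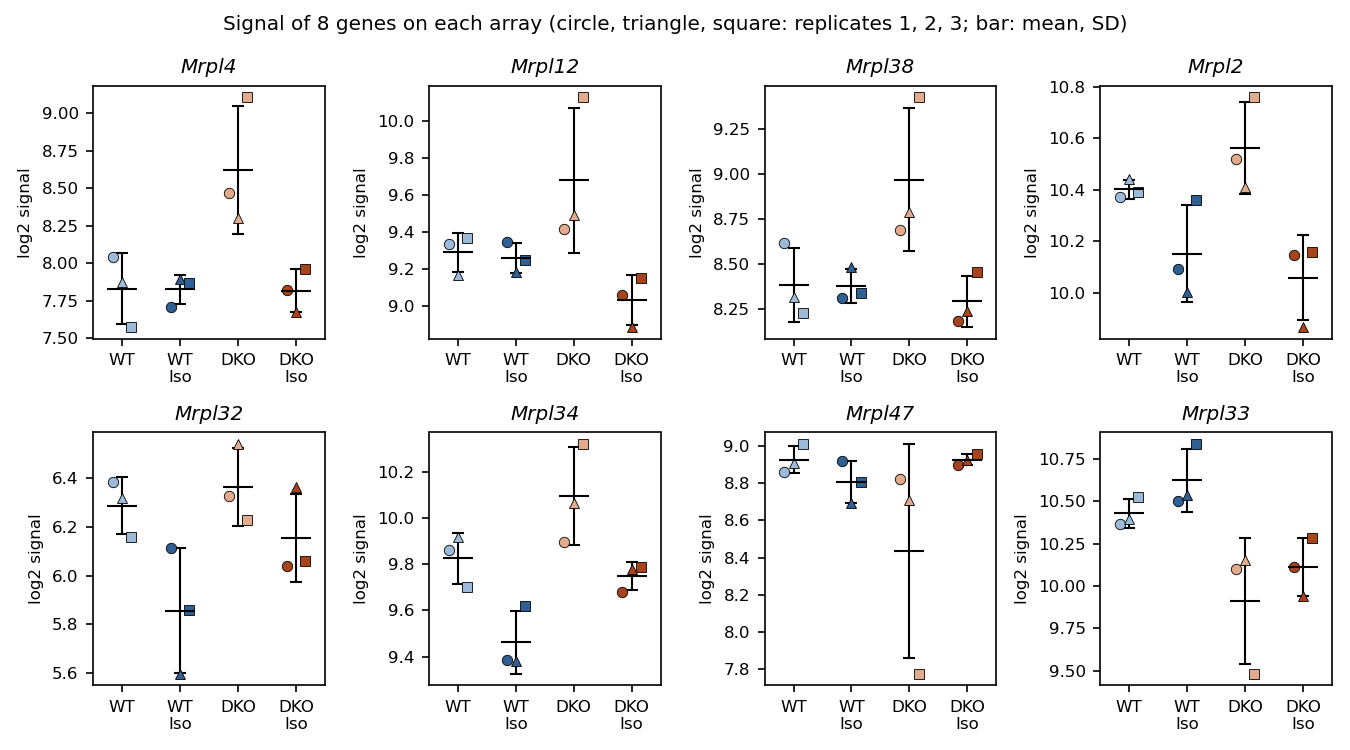
Log2 signal of 8 genes on each of the 12 arrays, with replicates 1, 2 and 3 as circle, triangle and square and the mean and SD of each group as black bars. Mrpl4, Mrpl12, Mrpl38 and Mrpl2 lie lower after Iso in all 3 DKO mice, Mrpl32 and Mrpl34 in all 6 mice, and Mrpl33 lies lower on all 6 DKO arrays than on any WT array.

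Within single mice, 55 to 61 of the 74 members were lower after Iso in 4 of the 6 animals, and fewer in mouse 3 of each genotype. In WT mice 1 and 2, 55 of the 74 members were lower after Iso (median differences -0.13 and -0.20), while in WT mouse 3 it was 37 (median -0.00). In DKO mice 1, 2 and 3 the counts were 58, 61 and 44 (medians -0.16, -0.19 and -0.27). Between 49.1% and 52.6% of all genes were lower after Iso in each mouse. The SD of the members' differences was 0.66 in DKO mouse 3, the one with untreated array 3, and 0.20 to 0.25 in the other mice. On that array all genes tested scattered more widely as well, as given above. The family thus lay around 0 in WT mouse 3 and scattered widely in both directions in DKO mouse 3.

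**Figure D3:**
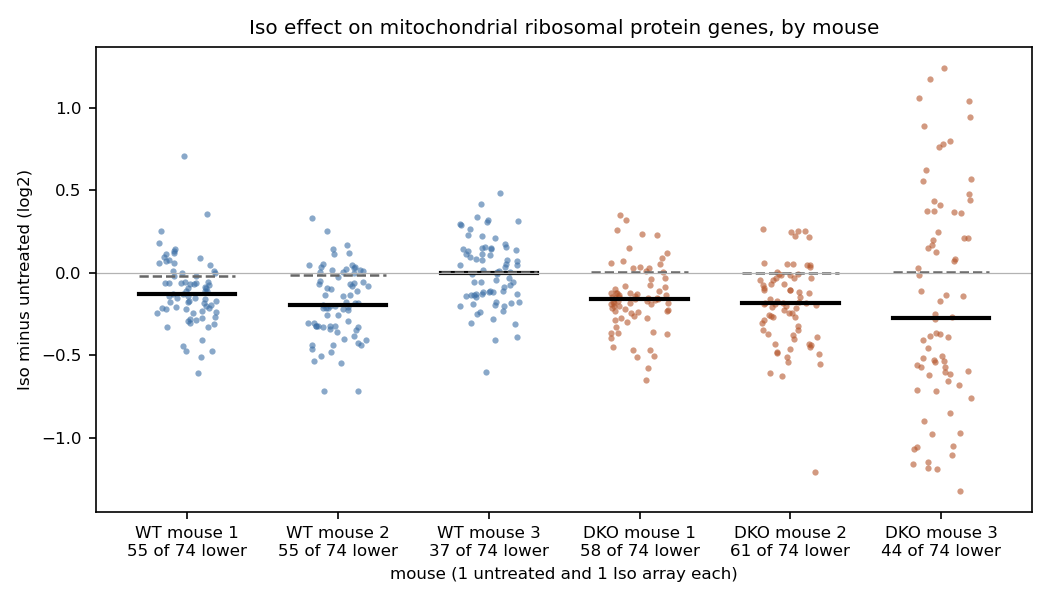
Iso minus untreated (log2) of each of the 74 tested genes in each mouse, 1 point per gene, with the median of the genes (black line) and of all 13737 genes tested (dashed line). The medians lie below 0 in WT mice 1 and 2 and in the 3 DKO mice, and at -0.00 in WT mouse 3.

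In all 6 mice 10 members were lower after Iso (13.5%, against 3.58% of all genes), and 38 were lower in at least 5 mice (51.4%, against 16.1%). With DKO mouse 3 left out, 16 members were lower in 5 of 5 mice (21.6%, against 6.08%). The 10 members comprised 7 of the large subunit, Mrpl2, Mrpl20, Mrpl32, Mrpl34, Mrpl36, Mrpl48 and Mrpl55, and 3 of the small subunit, Mrps12, Mrps16 and Mrps21. All but Mrpl48 have bacterial homologues. Mrpl34 differed by -0.47, -0.53 and -0.08 in WT mice 1, 2 and 3 and by -0.22, -0.29 and -0.53 in the DKO mice. Mrpl32 differed by -0.27, -0.72 and -0.30 in the WT and by -0.29, -0.18 and -0.17 in the DKO mice. Others of the 10 were barely lower in single mice, such as Mrpl36 by -0.01 and Mrpl2 by -0.03 in WT mouse 3. Mrps21 differed by -0.01 in DKO mouse 2. Mrpl18 was the only member higher in all 6 mice (3.55% of all genes were), by 0.04 to 0.18 in WT and 0.22 to 0.36 in DKO. These single-mouse differences rest on 1 array per condition and carry no test.

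All 11 members on one side after Iso in every mouse had a promoter entry, and 8 of them held a match to the letters searched, while Mrpl2, Mrpl20 and Mrpl55 held none. Of those 8 promoters 5 are shown as examples, chosen because they hold a match, together with that of Mrpl12. Printed are the 250 bases before the start of transcription from RefSeq, build GRCm38.p6, in the direction of the gene. Capitals mark matches to letters bound by factors known for nuclear-encoded mitochondrial genes: GCGCA, any base and then GCGC for NRF1, CCGGAAG for ETS factors such as GABP, and AAGATGGC for YY1, each searched on both strands. Mrpl32, Mrpl34, Mrps12 and Mrps21 were lower in 6 of 6 mice, Mrpl12 was among the members with the smallest p in DKO, and Mrpl18 was higher in 6 of 6 mice.
Mrpl32 (chr13:14613038-14613287, minus strand): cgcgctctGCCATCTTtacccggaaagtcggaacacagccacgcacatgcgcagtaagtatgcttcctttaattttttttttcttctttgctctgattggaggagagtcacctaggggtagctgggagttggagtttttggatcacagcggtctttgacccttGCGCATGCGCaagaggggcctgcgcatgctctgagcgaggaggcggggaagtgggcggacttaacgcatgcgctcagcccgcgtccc
Mrpl34 (chr8:71464676-71464925, plus strand): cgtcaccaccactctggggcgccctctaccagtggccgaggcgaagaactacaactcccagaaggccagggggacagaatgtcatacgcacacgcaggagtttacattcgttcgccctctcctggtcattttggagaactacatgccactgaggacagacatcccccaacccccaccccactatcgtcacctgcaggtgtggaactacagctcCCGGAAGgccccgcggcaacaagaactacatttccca
Mrps12 (chr7:28741822-28742071, minus strand): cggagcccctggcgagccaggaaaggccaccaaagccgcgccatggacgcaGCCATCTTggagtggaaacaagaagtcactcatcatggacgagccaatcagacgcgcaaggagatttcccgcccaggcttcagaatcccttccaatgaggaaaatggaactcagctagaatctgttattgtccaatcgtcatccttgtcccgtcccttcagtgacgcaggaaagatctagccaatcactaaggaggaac
Mrps21 (chr3:95871515-95871764, minus strand): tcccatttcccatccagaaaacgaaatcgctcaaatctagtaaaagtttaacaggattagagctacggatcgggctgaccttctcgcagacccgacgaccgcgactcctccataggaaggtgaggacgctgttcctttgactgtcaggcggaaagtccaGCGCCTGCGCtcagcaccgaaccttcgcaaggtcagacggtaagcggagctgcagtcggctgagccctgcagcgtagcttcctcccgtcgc
Mrpl12 (chr11:120484387-120484636, plus strand): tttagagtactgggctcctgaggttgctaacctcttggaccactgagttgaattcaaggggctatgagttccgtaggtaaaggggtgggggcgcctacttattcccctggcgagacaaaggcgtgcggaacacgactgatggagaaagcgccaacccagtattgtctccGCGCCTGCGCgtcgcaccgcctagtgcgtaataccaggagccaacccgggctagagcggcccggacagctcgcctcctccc
Mrpl18 (chr17:12916092-12916341, minus strand): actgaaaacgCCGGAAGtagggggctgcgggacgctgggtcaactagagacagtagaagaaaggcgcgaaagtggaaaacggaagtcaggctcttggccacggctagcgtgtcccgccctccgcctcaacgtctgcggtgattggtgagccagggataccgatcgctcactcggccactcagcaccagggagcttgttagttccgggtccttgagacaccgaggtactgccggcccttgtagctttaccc

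The Mrpl32 stretch held an NRF1 match that starts 87 bases before the start of transcription and a YY1 match at 242 bases. Mrps21 held an NRF1 match at 91 bases and Mrpl12 one at 81 bases. Mrpl34 held an ETS match at 37 bases, Mrps12 a YY1 match at 199 bases, and Mrpl18, which lay the other way after Iso, an ETS match at 240 bases. Of the 74 tested members 65 had a promoter entry. The NRF1 letters stood in 10 of these promoters (15.4%, against 8.25% of 10476 tested genes with an entry), the ETS letters in 16 (24.6%, against 13.7%) and the YY1 letters in 4 (6.15%, against 2.20%). At least 1 of the 3 was found in 28 members (43.1%, against 21.9%). The cAMP response element TGACGTCA was found in 2 members, Mrpl16 and Mrpl49 (3.08%, against 2.69%). A match describes the letters only and says nothing of binding in these cells.

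Sorted by their place in the ribosome, both subunits and both evolutionary classes lay on the lower side after Iso. In WT 43 of 50 large-subunit and 18 of 24 small-subunit members were below 0, with medians of -0.09 and -0.11. In DKO it was 32 of 50 and 19 of 24, with medians of -0.27 and -0.18, or 39 and 21 with medians of -0.17 and -0.11 without untreated DKO array 3. Members with a bacterial homologue were below 0 in 34 of 44 cases in WT (median -0.12) and 30 of 44 in DKO (median -0.23). Proteins found in mitochondria alone were below 0 in 27 of 30 cases in WT (median -0.08) and 21 of 30 in DKO (median -0.23). Without that array the DKO counts were 34 of 44 and 26 of 30, with medians of -0.15 and -0.13. Mrps18a and Mrps30 carry small-subunit names but are proteins of the large subunit, and were counted there. The difference between these classes was not tested.

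**Figure D4:**
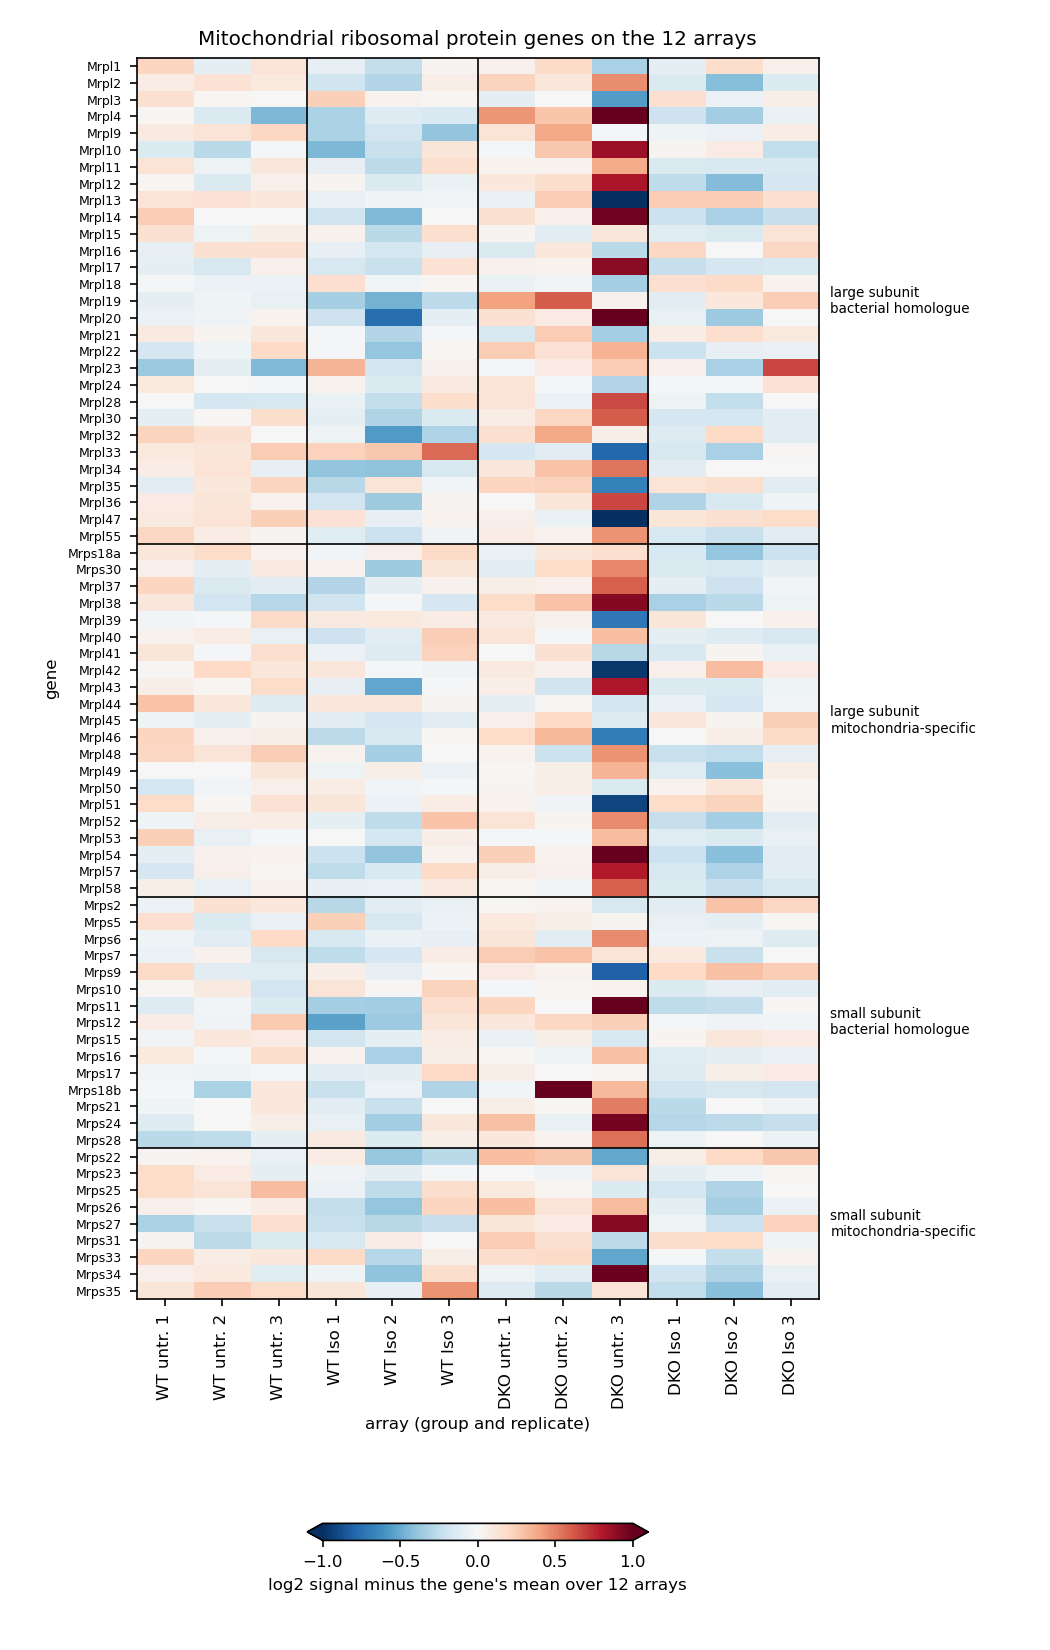
Log2 signal of the 74 tested genes (rows, by subunit and class) on the 12 arrays (columns, by group), as the difference from the mean of each gene over all arrays, on a scale that ends at -1 and 1. Untreated DKO array 3 holds most of the strongest colours in both directions, and array 2 of Iso-treated WT is mostly blue, with 65 of 74 genes below their mean.

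Setting the genotypes against each other, 46 members were below 0 after Iso in both (62.2%, against 26.8% of all genes) and 8 were above 0 in both (10.8%, against 25.5%). With untreated DKO array 3 left out the counts were 52 (70.3%, against 28.1%) and 5 (6.76%, against 27.2%). The comparisons share no arrays. The interaction, which is the Iso difference in DKO minus that in WT, had a median of -0.12 over the members, against 0.01 over all genes, with 42 below and 32 above 0 (49.2% of all genes were below). By limma 0 members passed (background 0.0146%), the smallest adjusted p being 0.394. At an unadjusted p under 0.05 there were 4 lower (background 4.62%) and 1 higher member (background 5.48%), or 3 and 0 without untreated DKO array 3 (4.60% and 5.55%). The median moved to -0.05 when untreated DKO array 3 was left out, and to -0.040 when it was Iso-treated WT array 3. For 3 members (Mrpl13, Mrpl51 and Mrps15) Iso went with a lower signal in each WT mouse and a higher one in each DKO mouse, as for 2.80% of all genes. For 1 member (Mrps28) it was the reverse, as for 1.97% of all genes.

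Mrpl4, Mrpl38 and Mrpl12 had the smallest p on the lower side of the interaction, at -0.80 (SE 0.27), -0.67 (SE 0.26) and -0.62 (SE 0.24). In WT these genes differed by only -0.01, -0.01 and -0.03 after Iso. Mrpl4 read 8.04, 7.88 and 7.57 on untreated and 7.71, 7.89 and 7.87 on Iso-treated WT arrays, so that its WT groups overlapped widely. The adjusted p of the interaction were 0.394, 0.428 and 0.435, and without untreated DKO array 3 the interactions were -0.56, -0.44 and -0.39. On the higher side stood Mrpl16 (0.43, SE 0.18), Mrps2 (0.39, SE 0.19) and Mrpl47 (0.61, SE 0.30), which read as 0.35, 0.32 and 0.28 without that array. Mrpl16, of the large subunit, read 9.26, 9.50 and 9.50 on untreated and 9.27, 9.17 and 9.27 on Iso-treated WT arrays, against 9.20, 9.45 and 9.07 and then 9.55, 9.35 and 9.55 in DKO.

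**Figure D5:**
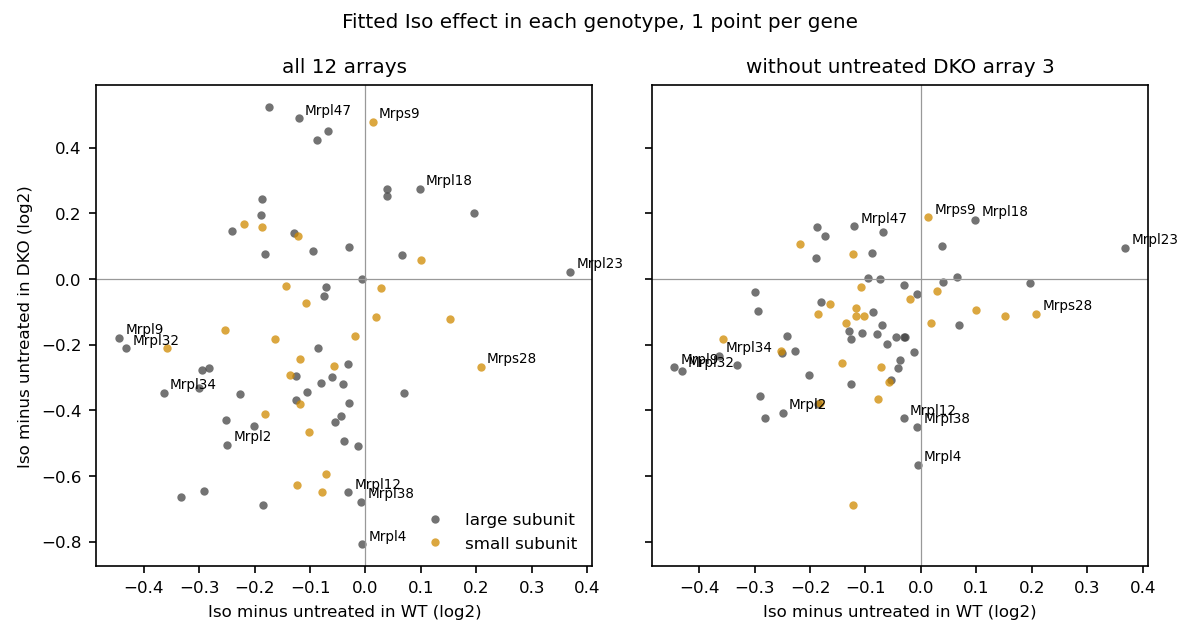
Fitted difference Iso minus untreated (log2) in WT (horizontal) and DKO (vertical), 1 point per tested gene, black for the large and orange for the small subunit, from all 12 arrays (left) and without untreated DKO array 3 (right). Of the 74 genes 46 lie below 0 on both axes at left, and the vertical spread is smaller at right.

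Between the genotypes without Iso, 47 of 74 members lay above 0 in DKO (51.9% of all genes lay below), with a median of 0.08 against -0.01 over all genes. By limma 0 members passed (background 0.204%). At an unadjusted p under 0.05 there were 9 higher (background 6.36%) and 2 lower members (background 7.45%). Without untreated DKO array 3 the median was 0.05, with 7 higher and 1 lower member (5.79% and 6.72% of all genes). The higher count was 4 without untreated WT array 1 (4.77%) and 14 without untreated DKO array 1 or 2 (7.53% and 10.3%). Without untreated DKO array 2, 1 member (Mrpl4) passed at an adjusted p under 0.05, which is 1.35% beside 1.32% of all genes and so equal to the background. Endothelial markers also lay higher in untreated DKO, with 8 of 10 above 0 (median 0.38, or 0.21 without array 3). Of these 4 were higher at an unadjusted p under 0.05, or 3 without array 3. Of 73 oxidative phosphorylation genes 51 were above 0 (median 0.09), with 12 higher at an unadjusted p under 0.05. Without array 3 it was 56 of 72 tested (median 0.06), with 7 higher. The part of the endothelial markers in the members' values was not tested. The untreated DKO arrays lay above all untreated WT arrays for 12 members (background 7.84%) and below all for 3 (background 9.21%), and with array 3 left out for 16 and 5 (13.7% and 16.4% of all genes). Mrpl4, whose values stand above, was 0.79 higher in untreated DKO (SE 0.19, a 1.73-fold higher signal, adjusted p 0.132), and 0.55 higher without array 3 (adjusted p 0.153). Every untreated DKO array, array 3 or not, exceeded every WT array for this gene. The untreated DKO arrays also enter Iso in DKO and the interaction. The results of these comparisons are thus not separate findings, for single genes or for the family. Mrpl38 differed by 0.58 (SE 0.18, adjusted p 0.204) and Mrps28 by 0.44 (SE 0.14, adjusted p 0.22), and without array 3 by 0.36 and 0.28. The untreated DKO arrays of Mrps28 read 9.81, 9.74 and 10.25 and lay above all 3 untreated WT arrays.

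On the lower side in untreated DKO were Mrpl33 (-0.52), Mrpl47 (-0.49) and Mrpl51 (-0.42), all of the large subunit. Without array 3 they stood at -0.30, -0.16 and -0.11. For Mrpl51 the untreated DKO arrays read 8.88, 8.81 and 7.92 and the untreated WT arrays 9.02, 8.85 and 8.98, with overlap.

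With Iso the family showed no common offset between the genotypes. Of the 74 members 39 lay above and 35 below 0 in DKO (49.1% of all genes lay below), and the median was 0.01. The median ranged from -0.05 to 0.06 as single arrays were left out, and it was 0.06 with 54 members above 0 when Iso-treated WT array 3 was the one omitted. By limma 0 members passed (background 0.306%). At an unadjusted p under 0.05 there were 3 lower (background 4.18%) and 2 higher members (background 3.73%). Leaving out untreated DKO array 3, which enters mainly through the shared spread, gave 3 lower and 8 higher members (6.13% and 6.73% of all genes). The DKO arrays lay below all WT arrays for 7 members (background 8.56%) and above all for 9 (background 9.03%). Cell markers differed in this comparison. All 9 macrophage markers lay below 0 (median -0.35), and 2 of them passed by limma (background 0.306%). Also below 0 were 3 of 3 atrial (median -1.44) and 4 of 4 Schwann and mesothelial markers (median -0.50). Above 0 were 6 of 6 smooth muscle and pericyte (median 0.08) and 5 of 10 endothelial markers. Their part in the members' values was not tested.

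Mrpl33, a small protein of the large subunit with a bacterial homologue, was the only member with all 6 DKO arrays below all 6 WT arrays (0.677% of all genes), and for 0 members all 6 lay above (0.415%). It read 10.37, 10.39 and 10.53 on untreated WT and 10.50, 10.54 and 10.84 on Iso-treated WT arrays. The DKO arrays read 10.10, 10.15 and 9.48 untreated and 10.11, 9.94 and 10.28 with Iso. The genotypes were apart by -0.52 (SE 0.18, adjusted p 0.237) without and -0.51 (SE 0.18, adjusted p 0.417) with Iso, both from separate arrays. Without untreated DKO array 3 the values were -0.30 (adjusted p 0.405) and -0.51 (adjusted p 0.0836). After Iso, Mrpl33 differed by 0.20 (SE 0.18) in WT and 0.20 (SE 0.18) in DKO, the latter being -0.01 without that array.

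Mrpl19, also of the large subunit, lay the other way. It read 7.61, 7.66 and 7.63 on untreated WT and 7.37, 7.23 and 7.44 on Iso-treated WT arrays. In DKO it read 8.10, 8.31 and 7.75 untreated and 7.59, 7.81 and 7.95 with Iso. Under each treatment every DKO array exceeded every WT array, by 0.42 (SE 0.15, adjusted p 0.256) without and 0.43 (SE 0.15, adjusted p 0.418) with Iso. With untreated DKO array 3 left out the values were 0.57 (adjusted p 0.103) and 0.43 (adjusted p 0.127). Mrpl9 and Mrpl45, which helps to anchor the ribosome to the inner membrane, were also on the higher side with Iso, at 0.29 (SE 0.12) and 0.26 (SE 0.12). On the lower side Mrps35 of the small subunit differed by -0.42 (SE 0.16), reading 9.19, 9.02 and 9.33 in Iso-treated DKO and 9.56, 9.36 and 9.89 in Iso-treated WT. Mrps18a differed by -0.32 (SE 0.12). Neither pair of groups overlapped, and the adjusted p were 0.468 and 0.478.

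Members with a special role or a known disease link were read whatever their result. Mrpl3 and Mrpl44, both linked to cardiomyopathy, differed after Iso by 0.04 (SE 0.15) and -0.01 (SE 0.13) in WT and by 0.27 (SE 0.15) and 0.00 (SE 0.13) in DKO. Mrpl3 read 8.86 on untreated DKO array 3 and 9.33 to 9.66 on the others, and its DKO difference was 0.10 without that array. Mrps16 and Mrps22, linked to mitochondrial disease of early life, differed by -0.16 (SE 0.14) and -0.19 (SE 0.20) in WT. In DKO they differed by -0.18 (SE 0.14) and 0.16 (SE 0.20), which became -0.08 and -0.11 without array 3. Mrpl58, a peptidyl-tRNA hydrolase that rescues stalled ribosomes, differed by -0.03 (SE 0.16) in WT and -0.38 (SE 0.16, adjusted p 0.22) in DKO, or -0.17 without array 3. Mrps30 differed by -0.08 (SE 0.16) in WT and -0.32 (SE 0.16) in DKO, or -0.17 without array 3. Mrps36, since assigned to the alpha-ketoglutarate dehydrogenase complex, was too dim to be tested.

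The machinery around the ribosome was read from lists of other genes, and by limma 0 genes of any of them passed in any comparison, with all arrays or without untreated DKO array 3. Of 4 tested mitoribosome proteins with other symbols, 2 were below 0 after Iso in WT and 3 in DKO. Gadd45gip1, a large-subunit protein, read 5.64, 5.59 and 6.61 on untreated DKO arrays and 4.98, 4.99 and 4.83 on untreated WT arrays, a difference of 1.01 (SE 0.27, adjusted p 0.168), or 0.68 (adjusted p 0.223) without array 3. The groups did not overlap, with or without that array. Dap3, the small-subunit protein that binds GTP, differed by 0.21 (SE 0.15) and -0.11 (SE 0.15) after Iso in WT and DKO, the latter being -0.28 without array 3. Among 29 assembly and rRNA modification factors, 20 were below 0 in WT (median -0.16) and 16 in DKO (median -0.15). In DKO 10 were lower and 1 was higher at an unadjusted p under 0.05 (8.94% and 9.46% of all genes). When untreated DKO array 3 was left out, 24 were below 0 (median -0.28), with 9 lower and 1 higher (7.35% and 7.69% of all genes). Mtg2, a GTPase of large-subunit assembly, read 6.73, 6.46 and 6.46 without and 5.50, 5.69 and 5.94 with Iso in DKO, without overlap (difference -0.84, SE 0.19, adjusted p 0.0716, or -0.88 without array 3). Mtg1, another such GTPase, read 7.55, 7.90 and 7.84 and then 7.14, 7.17 and 7.21 (difference -0.59, SE 0.13, adjusted p 0.0708, or -0.55 without array 3). In WT 0 assembly factors were lower and 1 was higher at an unadjusted p under 0.05 (3.24% and 3.46% of all genes). The higher one was Trmt2b, by 0.46 (SE 0.16, limma adjusted p 0.603).

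Of 16 translation factors 10 were below 0 after Iso in WT (median -0.13) and 8 in DKO (median 0.02), or 11 (median -0.09) without untreated DKO array 3. Tufm, the elongation factor that delivers tRNA, differed by -0.22 (SE 0.16) and -0.38 (SE 0.16), the latter being -0.25 without that array. The smallest p in DKO belonged to factors that lay higher, Gfm1 (0.68), Guf1 (0.44) and Mtres1 (0.52), or 0.31, 0.27 and 0.19 without that array. At an unadjusted p under 0.05, 3 factors were lower and 3 higher in DKO (8.94% and 9.46% of all genes). Without that array it was 0 and 1 (7.35% and 7.69%). A list of 18 genes of mitochondrial tRNA charging held aminoacyl-tRNA synthetases and also Gatc, an amidotransferase subunit that is not a synthetase. Of these genes 13 and 10 were below 0, with medians of -0.06 and -0.07 (-0.12 in DKO without the array). The smallest p belonged to Cars2 in WT, at -0.33, and to Gatc in DKO, at 0.45, or 0.57 without the array. In DKO 0 genes of this list were lower and 2 higher at an unadjusted p under 0.05 (8.94% and 9.46% of all genes). Without the array it was 3 and 1 (7.35% and 7.69%). Of 9 genes of mitochondrial transcription and DNA maintenance, 9 were below 0 in WT (median -0.25) and 5 in DKO (median -0.02), or 7 (median -0.20) without the array. Polrmt, the mitochondrial RNA polymerase, read 6.36, 6.16 and 5.83 without and 5.16, 5.48 and 5.87 with Iso in WT, overlapping in 1 array (difference -0.62, SE 0.18, adjusted p 0.462). In DKO it read 5.87, 5.93 and 6.16 and then 5.25, 5.22 and 5.25, with no overlap (difference -0.75, SE 0.18, adjusted p 0.0845, or -0.66 without array 3). Tfam, which packages mitochondrial DNA, differed by -0.28 (SE 0.31) and 0.55 (SE 0.31), with the low value of 5.13 on untreated DKO array 3, without which the latter was 0.11.

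Of 18 genes of mitochondrial RNA processing 16 were below 0 in WT (median -0.16) and 7 in DKO (median 0.14), but 9 without untreated DKO array 3 (median -0.0050). Lrpprc, which stabilises mitochondrial messenger RNAs, differed by -0.07 (SE 0.19) and 0.33 (SE 0.19), the latter being 0.11 without that array. The smallest p of this list belonged to Ptcd2 in WT, at -0.55, and to Rexo2 in DKO, at 0.48, or 0.24 without that array. In DKO 1 gene was lower and 2 were higher at an unadjusted p under 0.05 (8.94% and 9.46% of all genes). Without that array it was 2 and 0 (7.35% and 7.69%). Of 14 nuclear regulators of mitochondrial genes 4 and 6 were below 0. At an unadjusted p under 0.05, 0 were lower and 3 higher in WT (3.24% and 3.46% of all genes). The higher ones were Ppargc1b, Yy1 (0.44) and Pprc1 (0.27). In DKO 0 were lower and 2 higher (8.94% and 9.46%), or 1 and 1 without untreated DKO array 3 (7.35% and 7.69%). Ppargc1b, a coactivator of such genes, read 6.70, 6.45 and 6.39 without and 6.65, 7.16 and 7.13 with Iso in WT, and 6.07, 6.51 and 6.70 and then 7.21, 7.32 and 7.10 in DKO. It thus lay higher in Iso-treated DKO on every array, by 0.78 (SE 0.18, adjusted p 0.0766, or 0.92 without array 3), and by 0.47 (SE 0.18, adjusted p 0.658) with overlap in WT. Ppargc1a, the related coactivator, differed by -0.17 (SE 0.18) in WT and 0.40 (SE 0.18) in DKO, or 0.29 without array 3.

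Beside other gene families of the same kind, the median of the members after Iso was -0.10 in WT and -0.23 in DKO. It was -0.05 and -0.08 for 42 cytosolic ribosomal protein genes, and 0.01 and -0.07 for 73 nuclear genes of oxidative phosphorylation subunits. Below 0 were 82.4%, 54.8% and 46.6% of these families in WT, and 68.9%, 59.5% and 63.0% in DKO. With array 3 of untreated DKO left out the DKO medians were -0.14, -0.08 and -0.02, with 81.1%, 66.7% and 59.7% below 0. Lists read above were lower still in WT, with medians of -0.13 for translation factors and -0.16 for assembly factors. RNA processing stood at -0.16 and transcription and DNA maintenance at -0.25, but tRNA charging at -0.06 and nuclear regulators at 0.03. In DKO without array 3 these lists stood at -0.09, -0.28, -0.0050, -0.20, -0.12 and 0.04, in that order. A lower median was thus not particular to the members. These are descriptions of overlapping distributions, and the difference between the families and lists was not tested.

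Markers of other cells also moved with the treatment. The 9 tested macrophage markers, lower in DKO as stated, had mean levels of 5.61 to 5.90 on untreated and 5.02 to 5.26 on Iso-treated DKO arrays. In WT the macrophage markers averaged 5.46 to 5.66 without and 5.56 to 5.64 with Iso. Of 10 endothelial markers 9 were below 0 in DKO (median -0.25) and 9 above 0 in WT (median 0.20). In the fit without untreated DKO array 3, 8 of 9 macrophage and 7 of 10 endothelial markers were below 0 in DKO, with medians of -0.54 and -0.08. None of these markers was at 0 signal, which the deposited scale does not contain (lowest value 2.25). The 3 atrial myocyte markers averaged 7.40, 7.29 and 4.50 on Iso-treated WT arrays 1, 2 and 3. On these arrays the members were below their mean in 51, 65 and 29 of 74 cases. On the Iso-treated DKO arrays the atrial markers averaged 5.01, 4.76 and 4.81, with 54, 49 and 42 members below their mean. On the untreated WT arrays it was 5.30, 6.04 and 4.32, with 27, 37 and 26 members below. On the untreated DKO arrays it was 5.47, 5.13 and 4.75, with 19, 18 and 26 below. The part of the endothelial and atrial markers in the members' values was not tested either.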

How the data were processed

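Total RNA of cultured adult mouse ventricular myocytes was hybridised to Affymetrix arrays, 12 in 4 groups of 3. The values were made by the authors with RMA (submitters' processing notes) and deposited as log2 signals, which were used as they are; array type and annotation build were not given in the sources used here. A small number of arrays limits the precision. Of 25428 probe sets 723 had no symbol in the platform annotation; for the 1 symbol with 2 probe sets the brighter was used. limma 3.58.1 in R 4.3.3 fitted 4 group means over all 12 arrays (lmFit, eBayes) and 5 contrasts, with Benjamini-Hochberg adjustment over the 13737 genes above the array median on at least 3 arrays, and a threshold of 0.05. The scripts were tested on simulated data.

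The members and lists were chosen with earlier results of these data known. Named were, per comparison, the 3 members with the smallest p in each direction. A fixed set was also named (Mrpl12, Mrpl58, Mrpl3, Mrpl44, Mrps16, Mrps22, Mrps36, Mrps30). Of each other list up to 3 genes with the smallest p per comparison were read, beside Tfam, Polrmt, Ppargc1a, Dap3, Tufm and Lrpprc. Only part of those genes are named above, so the named ones do not stand for their lists. Mice pair untreated and treated arrays, per the labels' mouse numbers. Deviations of paired arrays from their group means correlated at -0.06 to 0.13 across genes, which are not independent replicates (consensus 0.0333). Alternatives were the filter, scaling, moderation, array weights, the mouse as a block, only the arrays compared, and each array left out in turn. Counts without DKO mouse 3, and lists, families and markers without untreated DKO array 3, were added after the data were seen.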

Additional observations from a re-analysis of the deposited data

Results flagged for a closer look

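Some members differed after Iso in opposite directions in the genotypes, in every mouse of each. They were singled out for this pattern. Mrpl13, Mrpl51 and Mrps15 were lower in 3 of 3 WT and higher in 3 of 3 DKO mice (2.80% of all genes were), with interactions of 0.70, 0.52 and 0.25. Mrps28 was higher in 3 of 3 WT and lower in 3 of 3 DKO mice (1.97% of all genes), with an interaction of -0.47. By limma the interactions had adjusted p of 0.505, 0.543, 0.587 and 0.469, so the difference between the genotypes did not pass the test. Mrpl13 differed in DKO mice 1, 2 and 3 by 0.32, 0.00 and 1.24, the last from the mouse with untreated DKO array 3. Without that array the 4 interactions were 0.31, 0.21, 0.20 and -0.31.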

How the results depend on the processing

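Counts of members passing at an adjusted p under 0.05, and medians, were recomputed under 22 settings, 12 of which left out 1 array each. Of these values 208 stayed within 1.5 times the count, or within the spread between replicates of the median (SD 0.08), and 6 moved, while 0 single members reversed. Counts at an unadjusted p under 0.05 moved more as single arrays were left out. Lower members ranged from 1 to 8 for Iso in WT, 11 to 31 for Iso in DKO and 2 to 9 for the interaction. They ranged from 1 to 7 for DKO without Iso and 0 to 4 for DKO with Iso. Higher members stayed at 0 for Iso in WT and ranged from 0 to 9, 0 to 6, 4 to 14 and 0 to 8 in the others, in that order. The shares of all genes moved as well. Without untreated DKO array 2 there were 31 lower and 9 higher members for Iso in DKO (12.9% and 14.3% of all genes). For the interaction it was 9 and 6 (8.39% and 10.1%), and for DKO without Iso 7 and 14 (12.1% and 10.3%). Without untreated DKO array 3 there were 8 lower for Iso in WT (5.83%) and 8 higher for DKO with Iso (6.73%). For Iso in DKO, array weights gave 5 of 74 members passing (Mrpl12, Mrpl2, Mrpl4, Mrpl54 and Mrps24, among 1109 genes called in all, or 8.07%). Leaving out untreated DKO array 2 gave 4 (the same without Mrpl2, among 606 genes, or 4.45%). For DKO without Iso these settings gave 2 (Mrpl19 and Mrpl4, among 698 genes, or 5.08%) and 1 (Mrpl4, among 180 genes, or 1.32%). With array weights the share of members lay below that of all genes in both comparisons. As single arrays were left out, passing members ranged from 0 to 4 and from 0 to 1 in these comparisons and stayed at 0 in the others. Medians ranged from -0.17 to -0.04 for Iso in WT, from -0.26 to -0.14 for Iso in DKO, from -0.18 to -0.040 for the interaction, from 0.05 to 0.12 for DKO without Iso and from -0.05 to 0.06 for DKO with Iso. The medians that moved beyond the spread were those of Iso in DKO without untreated DKO array 3 (-0.14) and of the interaction without Iso-treated WT array 3 (-0.040). The cause was not tested. With the mouse as a random block the smallest adjusted p of a member for Iso in DKO was 0.0740 and as a fixed block 0.0805, and the pairing changed no call, with 0 members passing in each comparison. A fixed block gives no value for the genotype comparisons, and a fit on only the arrays compared is the main one for the interaction. Members near the array median, such as Mrpl23, are limited by their low signal.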
